A study of Mus musculus with 2 samples.

Results

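Expression of 10 genes for 6 nuclear subunits of cytochrome c oxidase was followed by cell class in mouse retinal pigment epithelium (RPE) and choroid. They are 10 of the 32285 genes in the deposited gene list. They comprise 6 isoforms found in most tissues (Cox4i1, Cox5a, Cox5b, Cox6a1, Cox7a2 and Cox8a) and 4 tissue-specific isoforms (Cox4i2, Cox6a2, Cox7a1 and Cox8b). Cox5a and Cox5b are separate subunits with 1 gene each, and each other subunit has a common and a tissue-specific form here. The family was chosen by the UMI counts of Cox8b, which stood out in the RPE of the knockout library, so the values of Cox8b in the RPE are given as a description and support nothing by themselves. Each genotype was sequenced as 1 library, so genotypes are compared without a test or p-value.

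A pair of single-cell libraries, 1 per genotype, was prepared by droplet capture from RPE and choroid tissue of mice aged 10 weeks, each pooling 1 male and 1 female. Mice of the Tsc1 flox library had the conditional Tsc1 allele Tsc1tm1Djk/J and no Cre. Mice of the Tsc1 RPE KO library had the same allele and the Best-Cre transgene, and the labels describe this knockout as RPE-specific. The product of Tsc1 is part of an inhibitor of the growth kinase mTORC1. Both libraries thus carry the floxed allele, no library carries Cre alone, and mice within a pool cannot be told apart.

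Cytochrome c oxidase, complex IV of the respiratory chain, passes electrons from cytochrome c to oxygen and pumps protons across the inner mitochondrial membrane. Its catalytic core is encoded by the mitochondrial genome, and the surrounding nuclear subunits bear on its assembly and regulation. Several nuclear subunits exist in a common form and in a form known from heart, skeletal muscle and brown fat (Cox6a2, Cox7a1 and Cox8b) or from lung and oxygen-sensing cells (Cox4i2). The RPE is an epithelium rich in mitochondria that supports the photoreceptors.

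The genes Cox8a and Cox8b encode alternative forms of the same small subunit and differ at their start sites. Their RefSeq promoter windows are shown because the family was chosen by Cox8b. Each runs from 250 bases before to 50 bases after the annotated start (assembly GRCm38.p6, both genes on the minus strand). Capitals mark the TATA box TATAAA and the E-box CAGCTG in Cox8b and the ETS motif CCGGAA in Cox8a, searched on both strands with none overlapping another. The Cox8b window is chr7:140900397-140900696 and the Cox8a window chr19:7217567-7217866.
Cox8b: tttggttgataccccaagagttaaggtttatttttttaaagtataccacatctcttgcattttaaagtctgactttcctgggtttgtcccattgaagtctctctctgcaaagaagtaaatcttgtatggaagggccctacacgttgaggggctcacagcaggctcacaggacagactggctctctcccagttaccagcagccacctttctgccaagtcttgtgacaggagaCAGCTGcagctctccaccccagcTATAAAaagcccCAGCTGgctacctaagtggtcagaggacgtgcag
Cox8a: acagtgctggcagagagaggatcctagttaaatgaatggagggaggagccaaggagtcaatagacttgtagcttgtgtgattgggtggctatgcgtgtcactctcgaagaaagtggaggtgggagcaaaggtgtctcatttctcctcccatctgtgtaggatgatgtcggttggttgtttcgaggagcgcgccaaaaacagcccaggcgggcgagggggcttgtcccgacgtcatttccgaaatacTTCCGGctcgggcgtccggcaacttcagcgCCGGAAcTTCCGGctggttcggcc

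The Cox8b window had 2 CpG dinucleotides and a GC content of 48.3%, and 14.1% of 32851 RefSeq promoter windows of the same length had fewer CpGs. It held 1 TATA box, whose first base lies 4 bases after the annotated start, and 2 E-boxes, whose first bases lie 19 bases before and 16 bases after it. The Cox8a window had 19 CpGs, more than 71.9% of windows, and a GC content of 56%, with 3 ETS motifs. The TATA box string was present in 13.6% of all windows, the E-box string in 16.3% and the ETS string in 14.9%. None of the other matched members held the first or the second of these, and Cox6a1 and Cox7a2 held the ETS string.

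Of the 10 members, 7 matched the promoter table, and the other common isoforms in it (Cox5a, Cox5b, Cox6a1 and Cox7a2) had between 20 and 35 CpGs. Cox7a1, the other tissue-specific isoform in the table, had 7, which is also the median of all windows. Further strings searched were the GC box GGGCGG (35.7% of windows), found in Cox5a, Cox6a1 and Cox7a2, the M-box CATGTG (14.2%), found in Cox5b, and the half-site AAGGTCA of oestrogen-related receptors (4.72%), found in no member. A match is a string of letters and not a measured binding site.

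After filtering, 1524 cells of Tsc1 flox and 1853 of Tsc1 RPE KO remained, with medians of 4525 and 4617 unique molecular identifiers (UMIs, 1 per captured RNA molecule). The libraries shared 2 cell barcodes. RPE-like cells were rare, with 12 cells and 32094 UMIs in Tsc1 flox and 44 cells and 105341 UMIs in Tsc1 RPE KO. Their cluster was led by Ttr, Ptgds, Rgr and Trf, and 10 of 11 RPE markers marked it, whereas Best1 had 0 UMIs in both libraries. Another 2 barcodes of Tsc1 RPE KO, which held 12.2% of the UMIs of its RPE-like barcodes and 79 and 119 UMIs of immune markers, were left out. The RPE-like cells kept had at most 4 immune UMIs each. In RPE-like cells of both libraries Tsc1 itself was at 0 UMIs, which allows up to 115 counts per 1000000 UMIs (CPM) for Tsc1 flox and 35.0 CPM for Tsc1 RPE KO, so no difference in Tsc1 was detectable at this depth. A 3' tag also need not fall in the deleted part. All levels below are CPM of a class with exact 95% intervals. Where a pair of values is given, Tsc1 flox comes first. The intervals cover counting error only, not the spread between cells, mice or preparations. CPM from 3' tags count molecules and need no correction for gene length, although genes can differ in how well their 3' ends are captured.

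The main contrast between the libraries within the family lay in the subunit 8 pair. In RPE-like cells Cox8a, the common isoform, was at 3427 CPM in Tsc1 flox (2817 to 4131, 110 UMIs) and 3522 CPM in Tsc1 RPE KO (3173 to 3899, 371 UMIs), a ratio of 1.03 (0.828 to 1.28). Cox8b was at 623 CPM in Tsc1 flox (381 to 962, 20 UMIs) and 3693 CPM in Tsc1 RPE KO (3335 to 4079, 389 UMIs), a ratio of 5.93 (3.78 to 9.81). Cox8b thus reached the level of Cox8a in Tsc1 RPE KO, while Cox8a lay at nearly the same level in both. As a share of the UMIs of both genes, Cox8b made up 15.4% in Tsc1 flox (9.66 to 22.8%) and 51.2% in Tsc1 RPE KO (47.6 to 54.8%). The sum of the pair was 4051 CPM for Tsc1 flox and 7215 CPM for Tsc1 RPE KO, 1.78-fold higher (1.48 to 2.16). In Tsc1 RPE KO only 20 genes of the RPE-like cells had more UMIs than Cox8b, against 179 genes in Tsc1 flox. For Cox8a these counts were 19 genes in Tsc1 flox and 22 genes in Tsc1 RPE KO.

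Cox8b varied widely among the cells of each library. Sorted, the 12 Tsc1 flox cells held 0, 0, 0, 0, 0, 0, 1, 1, 1, 3, 3 and 11 Cox8b UMIs. A single cell therefore held 55% of the 20 Tsc1 flox UMIs. The 44 Tsc1 RPE KO cells ranged from 0 to 37 with a median of 6, and 4 of them had 0. The libraries overlapped, since 11 Tsc1 RPE KO cells had more than the highest Tsc1 flox cell, but 40 of 44 lay above the Tsc1 flox median of 0.5. Without the highest cell of each library Cox8b had 9 and 352 UMIs, a ratio of 10.4 (5.44 to 23.0), and its Tsc1 flox share of the pair was 8.91%. Cox8a ranged from 5 to 18 UMIs per cell in Tsc1 flox, with a median of 8, and from 0 to 30 in Tsc1 RPE KO, with a median of 7. All 12 Tsc1 flox cells had fewer Cox8b than Cox8a UMIs. Among the Tsc1 RPE KO cells 13 had more Cox8b than Cox8a, 8 had equal numbers and 23 had fewer. The share of Cox8b within a cell had a median of 5% in Tsc1 flox and 46.2% in the 43 Tsc1 RPE KO cells with a UMI of either gene, and 29 of those lay above the highest Tsc1 flox cell, at 37.9%.

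**Figure D1:**
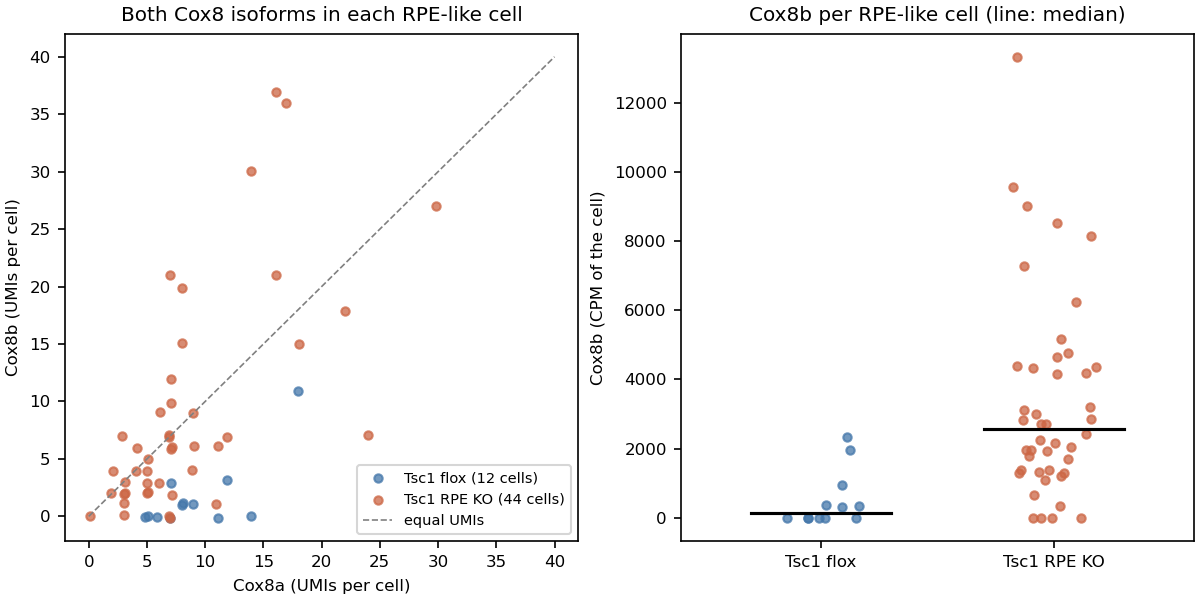
Left, UMIs of Cox8a (x axis) and Cox8b (y axis) in each RPE-like cell of Tsc1 flox (12 cells) and Tsc1 RPE KO (44 cells), with small random offsets to separate points and a dashed line where both are equal; right, Cox8b in CPM of the cell, with the median as a line. All Tsc1 flox cells lie below the line of equal UMIs, and 13 Tsc1 RPE KO cells lie above it.

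Cox8b UMIs were seen in 50% of Tsc1 flox RPE-like cells (6 of 12, 21.1 to 78.9%) and 90.9% of Tsc1 RPE KO cells (40 of 44, 78.3 to 97.5%). The median depth was 2582 UMIs in Tsc1 flox and 2096.5 UMIs in Tsc1 RPE KO. After each cell was thinned to 1000 UMIs, Cox8b remained in 3 of 12 cells (25%, 5.49 to 57.2%) and 37 of 44 cells (84.1%, 69.9 to 93.4%). The library with the deeper RPE-like cells was therefore the one with less Cox8b. Outside the RPE-like cells Cox8b was nearly absent, although the median depth over all cells was higher, at 4525 and 4617 UMIs. It was found in 0 of 1512 other cells of Tsc1 flox and in 6 of 1807 other cells of Tsc1 RPE KO, with 11 UMIs in all. Of those 6 cells, 3 also held Ttr, with 11, 15 and 105 UMIs. RPE-like barcodes, the 2 with immune RNA included, held 463 of the 474 Cox8b UMIs in cells, or 97.7%. Cox8b was itself among the 10 leading genes of the RPE-like cluster, so its presence there is a description. Clustering without the complex IV and mitochondrially encoded genes gave the same 12 and 44 cells and the same ratio.

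Other values moved between the libraries beside Cox8b. The mitochondrially encoded share of RPE-like UMIs was 1.53% for Tsc1 flox and 2.92% for Tsc1 RPE KO. Rod markers made up 93.5 and 161 CPM, from 3 and 17 UMIs, too few to read a shift. Ttr, the transthyretin gene that leads the RPE transcriptome, was at 102106 and 112492 CPM. Among the RPE's visual cycle genes, Rpe65, the retinoid isomerase, was at 6201 and 1832 CPM, Rgr at 19287 and 9218 CPM and Rrh at 1122 and 532 CPM, each lower in Tsc1 RPE KO. Rdh5, a retinol dehydrogenase, was at 7073 and 7984 CPM, and Lrat, the enzyme that esterifies retinol, at 748 and 1775 CPM. The part of these shifts in the Cox8b difference was not tested. Markers of tissues known for Cox8b were at or near 0. Of 14 striated muscle markers, 0 were seen in Tsc1 flox RPE-like cells and 1 in Tsc1 RPE KO, with 1 UMI. Of 7 brown fat markers, 1 was seen in each, with 3 and 4 UMIs.

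Free RNA and shallow barcodes gave a reading of the same transcripts outside the called RPE-like cells, although they come from the same cell suspensions. Among barcodes with 10 to 100 UMIs, taken as free RNA, Cox8b had 8 UMIs in Tsc1 flox (6.47 CPM) and 61 in Tsc1 RPE KO (45.2 CPM). Set against Ttr there, this was 6.48 and 22.4 Cox8b UMIs per 1000 Ttr UMIs, a ratio of 3.46 (1.65 to 8.36). Above 100 and below 500 UMIs the values were 9.32 and 66.0 per 1000 Ttr UMIs, a ratio of 7.09 (2.23 to 36.0). From 500 UMIs to the cell minimum they were 16.7 and 25.8, a ratio of 1.54 (1.05 to 2.30). In the RPE-like cells they were 6.10 and 32.8, a ratio of 5.38 (3.43 to 8.90). Cox8b per Ttr thus lay higher in Tsc1 RPE KO at every depth, by unequal amounts.

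**Figure D2:**
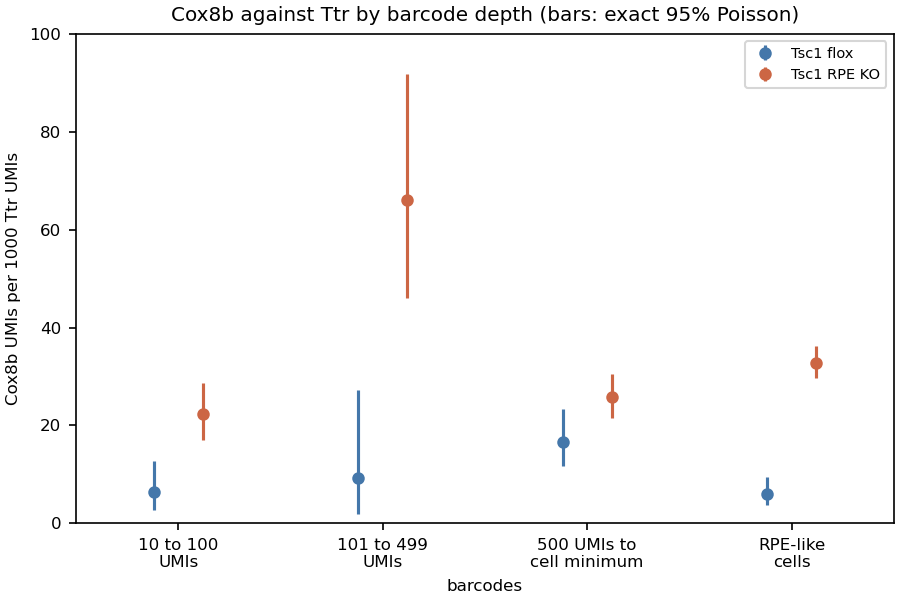
Cox8b UMIs per 1000 Ttr UMIs (y axis) in barcodes of 3 depth bands and in RPE-like cells (x axis), with exact 95% Poisson intervals as bars. The Tsc1 RPE KO points lie above the Tsc1 flox points in each band, and the gap is narrowest from 500 UMIs to the cell minimum, at 16.7 and 25.8.

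The size of the Cox8b difference depended on which barcodes counted as cells. RPE-like barcodes between 500 UMIs and the cell minimum, 30 of Tsc1 flox and 48 of Tsc1 RPE KO, had medians of 904 and 910.5 UMIs. They held 35 Cox8b UMIs beside 64 of Cox8a in Tsc1 flox, a share of 35.4% (26.0 to 45.6%). In Tsc1 RPE KO they held 130 beside 119, a share of 52.2% (45.8 to 58.6%). The ratio of Cox8b CPM there was 2.36 (1.62 to 3.54). Cox8b was unevenly spread in these Tsc1 flox barcodes too, with 20 of the 35 UMIs in 3 barcodes and 0 in 19 of 30. With all barcodes from 500 UMIs, 42 and 92 of them, the ratio was 3.80 (2.87 to 5.11).

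The other common isoforms lay within 2-fold of each other between libraries where they could be measured. A gene counted as measured with at least 50 UMIs over both libraries, and as changed past 2-fold. Of the 10 members, 6 were measured in RPE-like cells, and 1 of them, Cox8b, lay past 2-fold higher. Over all 334 measured genes 6.89% lay past 2-fold higher and 2.99% past 2-fold lower. As the choice of the family used this contrast, nothing is read from that count. The median log2 ratio of the 6 measured members was 0.16, against -0.06 over all measured genes. Of the measured genes, 2 had a higher ratio than Cox8b.

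Cox4i1, the common form of the largest nuclear subunit, had 34 and 135 UMIs in RPE-like cells (1059 and 1282 CPM), a ratio of 1.21 (0.825 to 1.82). Cox5b, which binds zinc, had 20 and 64 UMIs (623 and 608 CPM), a ratio of 0.975 (0.582 to 1.70). Cox7a2 had 21 and 94 UMIs (654 and 892 CPM), a ratio of 1.36 (0.843 to 2.31). Cox6a1 had 13 and 37 UMIs (405 and 351 CPM), a ratio of 0.867 (0.450 to 1.78), and with 50 UMIs in all it only just counted as measured. Each of these intervals includes 1, and those of Cox5b and Cox6a1 also include 1.5-fold differences in both directions. Cox5a, another common subunit, had 1 and 24 UMIs (31.2 and 228 CPM) and fell short of 50 UMIs. Its ratio was 7.31 with a counting interval of 1.19 to 301. In the RPE-like barcodes below the cell minimum Cox5a had 1 and 11 UMIs.

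**Figure D3:**
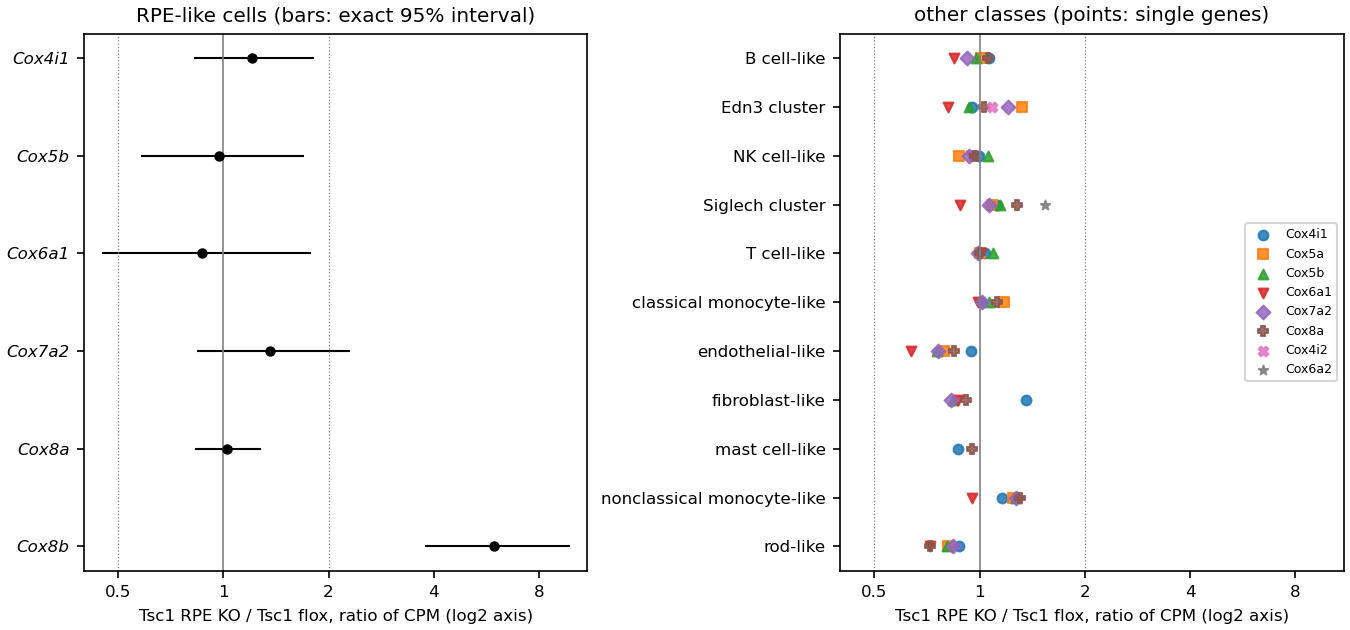
Ratio of CPM in Tsc1 RPE KO to Tsc1 flox (x axis, log2 scale) for the measured members. Left, RPE-like cells with exact 95% intervals as bars, where Cox8b lies at 5.93 and the 5 common isoforms between 0.867 and 1.36; right, 1 point per gene in each of 11 other classes, all between the dotted lines at 0.5 and 2.

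Without Cox8b the family's sum in the RPE differed little. The 6 common isoforms together reached 6201 and 6882 CPM, a ratio of 1.11 (0.948 to 1.31). All 10 members gave a ratio of 1.55 (1.34 to 1.80), and the 9 without Cox8b 1.11 (0.947 to 1.30). Over all 18 nuclear complex IV subunit genes listed, the ratio was 1.26 (1.13 to 1.41) with Cox8b and 1.03 (0.917 to 1.15) without it.

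The remaining genes of the complex were set beside the members. Of the 8 other nuclear subunit genes 5 were measured, and 0 lay past 2-fold. Cox7c was at 1.33 (0.889 to 2.05), Cox6b1 at 0.926 (0.583 to 1.52), Cox6c at 0.941 (0.634 to 1.43), Cox7b at 0.860 (0.552 to 1.37) and Ndufa4 at 0.812 (0.620 to 1.07). Each of these intervals includes 1, and the median log2 ratio was -0.11. The 3 mitochondrially encoded core subunits were all higher in Tsc1 RPE KO. The ratio was 1.83 for mt-Co1 (1.47 to 2.32), 2.21 for mt-Co2 (1.66 to 2.99) and 1.79 for mt-Co3 (1.37 to 2.38), with a median log2 ratio of 0.88. Of the 3, 1 lay past 2-fold, against 6.89% of all measured genes past 2-fold higher. With at least 1000 or at least 500 UMIs per cell, all 3 stayed higher but 0 lay past 2-fold. They are part of the mitochondrial share given above, which was also higher in Tsc1 RPE KO, and the part of that share in these ratios was not tested.

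Of 24 genes for assembly and copper delivery, 1 was measured. This was Cox17, a copper chaperone, with 21 and 52 UMIs and a ratio of 0.754 (0.447 to 1.32). Pet100, Coa3 and Cox14, which act in assembly, had 46, 36 and 37 UMIs over both libraries and are below the limit. None of the 5 supercomplex and hypoxia-linked partners and none of the 10 regulators of mitochondrial biogenesis was measured. Ppargc1a, which encodes the coactivator PGC-1alpha, had 3 and 4 UMIs. Of the 10 genes for cytochrome c and its reductase, complex III, 5 were measured, 4 higher and 1 lower. Uqcrb, a complex III subunit, lay past 2-fold with 11 and 81 UMIs, a ratio of 2.24 (1.19 to 4.67). Over all 334 measured genes 154 were higher and 180 lower, and 6.89% lay past 2-fold higher. No direction is read from a count of 5 genes.

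Other genes known from the same tissues as Cox8b were set beside it. Of 10 heart, muscle and brown fat energy genes, Cox8b and the other heart isoforms among them, 7 had 0 UMIs in RPE-like cells of both libraries. Those at 0 were Cox6a2, Ckmt2, Fabp3, Ucp1, Cidea, Mb and Cpt1b. As 23766 of all 32285 genes were also at 0 in both, nothing is read from that count. Slc25a4, an adenine nucleotide carrier that many tissues express, had 53 and 162 UMIs, a ratio of 0.931 (0.679 to 1.30). For a gene at 0 the depth allows up to 115 CPM for Tsc1 flox and 35.0 CPM for Tsc1 RPE KO, well under the level of Cox8b. Cox7a1 was at 0 and 3 UMIs, which gives no fold. Cox4i2 was at 1 and 0 UMIs.

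The common isoforms were present in each of the 11 other classes with at least 10 cells per library, and among these the rod-like cells of Tsc1 flox had the highest level for each of the 6. Over these 11 classes in 2 libraries, Cox8a ranged from 468 to 1537 CPM, Cox4i1 from 334 to 812, Cox5b from 119 to 751, Cox5a from 72.5 to 570, Cox7a2 from 181 to 535 and Cox6a1 from 140 to 423 CPM. RPE-like cells of both libraries lay above all 22 of these values for Cox4i1, Cox7a2 and Cox8a, and above 21 of 22 for Cox5b and Cox6a1. Cox5a was the exception. Its RPE-like level was below all 22 others in Tsc1 flox, at 31.2 CPM (0.789 to 174), and above 8 of 22 in Tsc1 RPE KO, at 228 CPM (146 to 339). The mural-like and erythroid-like cells fell short of that cell number. Cox7a2 was at 628 CPM in the mural-like cells of Tsc1 RPE KO, from 13 UMIs in 5 cells, above the rod-like 535 CPM, and Cox5a had 0 UMIs in the erythroid-like cells of Tsc1 flox. The 10 members together made up 6855 CPM and 10604 CPM of RPE-like cells, against 1605 to 4628 CPM in those 11 classes.

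**Figure D4:**
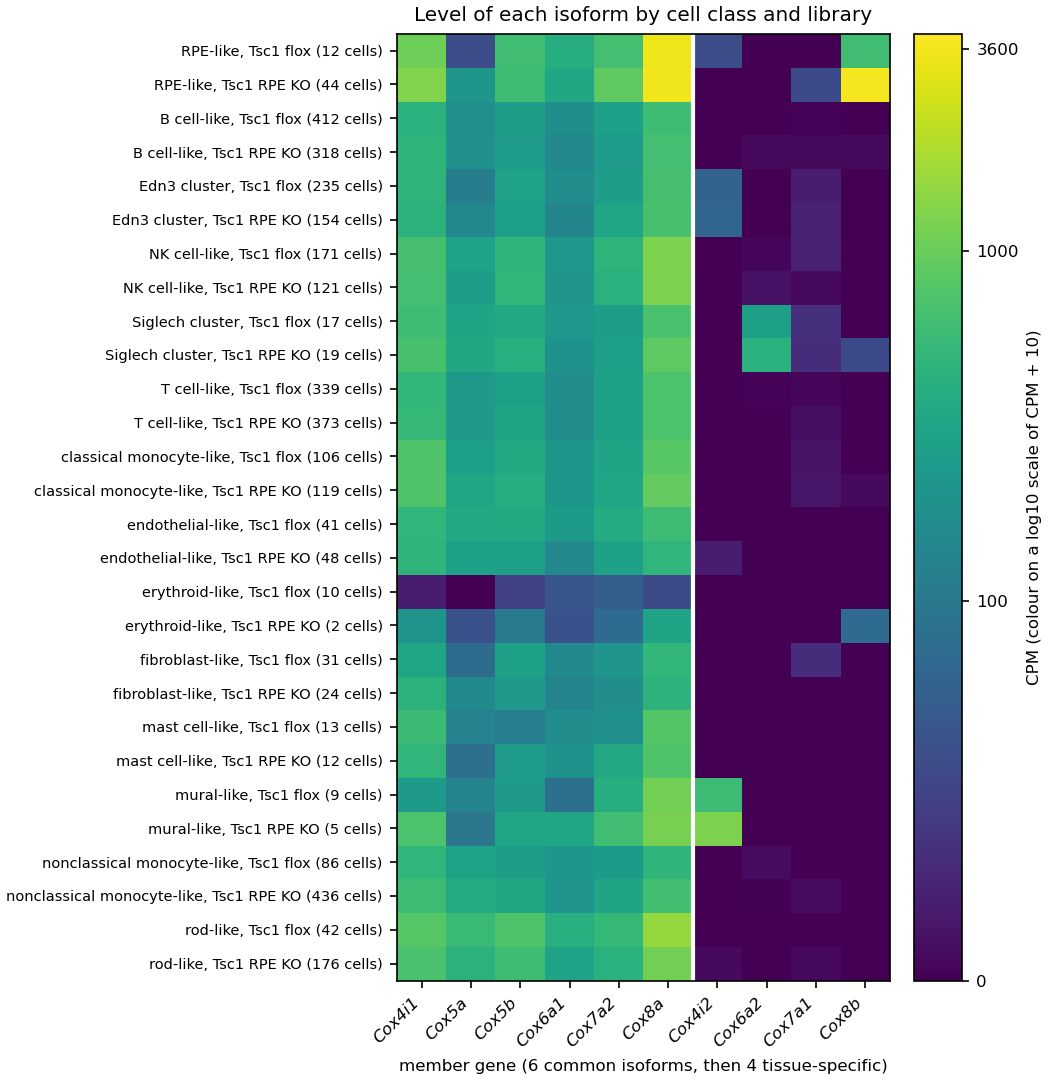
Level of each member (columns) in each cell class and library (rows, with cell numbers), as colour on a log10 scale of CPM + 10. The 6 common isoforms on the left are present in nearly every row, whereas Cox8b is bright in RPE-like rows, Cox6a2 in the Siglech cluster, and Cox4i2 in mural-like cells and, more faintly, the Edn3 cluster.

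Cox4i2 and Cox6a2 were found mainly outside the RPE, in few classes. Cox4i2 had 142 UMIs in all cells. Mural-like cells, led by the pericyte gene Rgs5, held 47 of them and the Edn3 cluster 92. The Edn3 cluster, led by Edn3, Serpine2 and Pgf, stayed unnamed because its 10 leading genes held 1 marker of another class and 0 fibroblast markers, although 6 of 8 fibroblast markers passed there. In mural-like cells Cox4i2 was seen in all 14 cells, with 1 to 9 UMIs in each of 9 Tsc1 flox cells and 1 to 13 in each of 5 Tsc1 RPE KO cells. Its level there was 601 CPM in Tsc1 flox (377 to 910) and 1207 CPM in Tsc1 RPE KO (781 to 1782). It exceeded Cox4i1, making up 22 of 31 UMIs of the pair in Tsc1 flox (71.0%, 52.0 to 85.8%) and 25 of 40 (62.5%, 45.8 to 77.3%) in Tsc1 RPE KO. With fewer than 10 cells per library no ratio between genotypes is given for this class. Without the highest cell the Tsc1 RPE KO share was 48%.

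In the Edn3 cluster Cox4i2 was the minor form. It was seen in 73 of 389 cells and made up 54 of 525 UMIs of the pair in Tsc1 flox (10.3%, 7.82 to 13.2%) and 38 of 328 (11.6%, 8.33 to 15.6%) in Tsc1 RPE KO. The levels were 55.7 and 60.5 CPM. Everywhere else 3 Cox4i2 UMIs were seen, 1 each in RPE-like, endothelial-like and rod-like cells. Ndufa4l2, a paralog of the complex IV subunit Ndufa4 known as a hypoxia target, was in the same 2 classes. It was at 1011 and 1111 CPM in mural-like cells, with UMIs in all 14, and at 97.0 and 138 CPM in the Edn3 cluster. Fibroblast-like cells had 39.0 and 40.1 CPM of it with 0 Cox4i2 UMIs, and RPE-like cells had 0. Higd1b, a pericyte gene of the hypoxia-induced domain family, had 8 and 10 UMIs in mural-like cells and 0 in the Edn3 cluster. Rgs5 had 180 UMIs in 38 Tsc1 flox cells of the Edn3 cluster and 150 UMIs in 35 Tsc1 RPE KO cells (186 and 239 CPM). The part of mural cell RNA in the Cox4i2 and Ndufa4l2 counts there was not tested.

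Cox6a2, the heart and muscle form of subunit 6a, had 145 of its 153 UMIs (94.8%) in a cluster of 17 Tsc1 flox and 19 Tsc1 RPE KO cells led by Siglech and Klk1, genes of plasmacytoid dendritic cells. Cox6a2 was also among the leading genes of this cluster. Since only 6 and 5 of the cells had a Siglech UMI, it is called the Siglech cluster here. Cox6a2 made up 67 of 121 UMIs of the pair with Cox6a1 in Tsc1 flox (55.4%, 46.1 to 64.4%) and 78 of 114 (68.4%, 59.1 to 76.8%) in Tsc1 RPE KO. Within the cluster nearly all of it lay in a few cells. In cells of the cluster with at least 10 Siglech UMIs, a limit chosen after the values were seen, 4 Tsc1 flox cells had 5 to 36 Cox6a2 UMIs and 3 Tsc1 RPE KO cells had 14 to 33. Cox6a2 was there at 1385 and 2787 CPM, or 79.3% (68.9 to 87.4%) and 94.0% (86.5 to 98.0%) of the pair. The other 13 Tsc1 flox cells had 2 UMIs in 1 cell, and the other 16 Tsc1 RPE KO cells had 0. Outside the cluster 1 classical monocyte-like cell of Tsc1 RPE KO had 21 Siglech UMIs and 0 Cox6a2 UMIs. Without its highest cell in each library, the share in the whole cluster was 40.8% and 55.6%. Cox6a2 lies within Itgad, which is on the opposite strand, and Itgad had 0 UMIs in the cells of the cluster with at least 10 Siglech UMIs.

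Cox7a1, the heart and muscle form of subunit 7a, was not a feature of any class. It had 53 UMIs in all cells, spread over 10 classes, and outside the RPE its highest level, in the Siglech cluster of Tsc1 flox, came from 3 UMIs. RPE-like cells of Tsc1 RPE KO were at 28.5 CPM (5.87 to 83.2) from 3 UMIs in 3 cells.

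**Figure D5:**
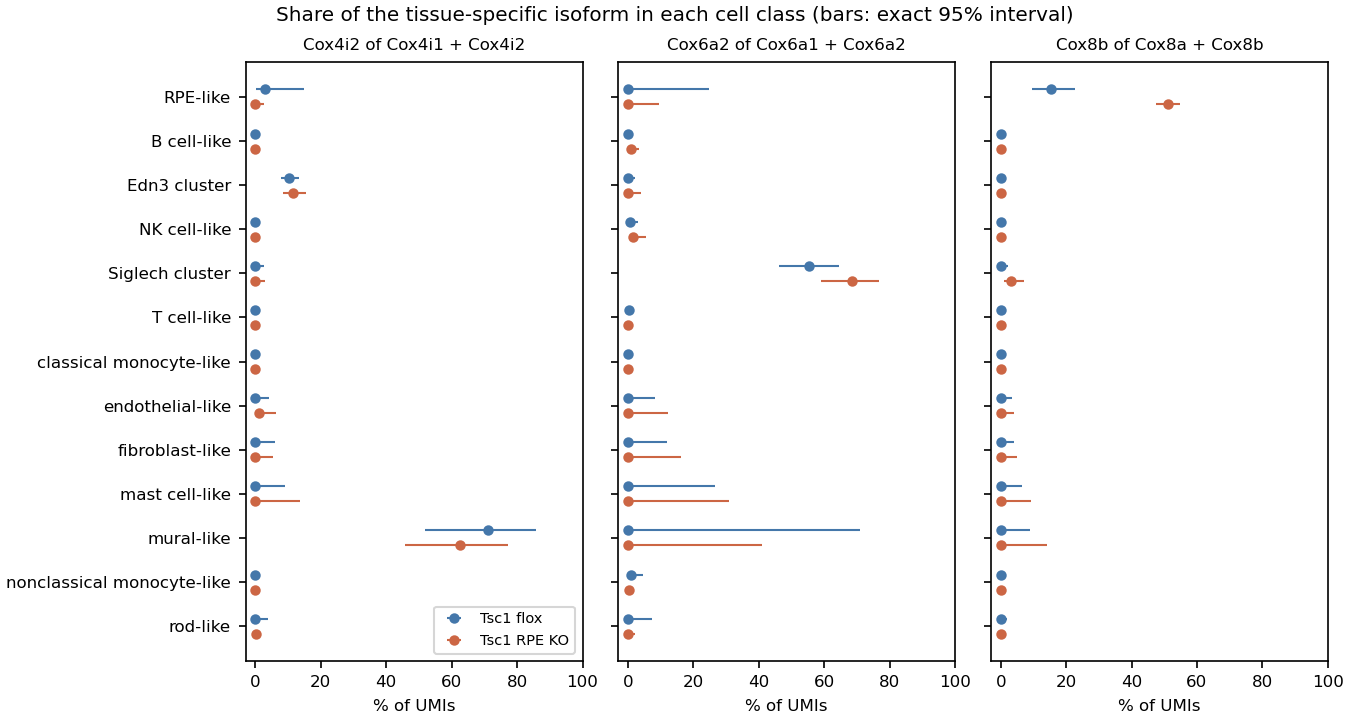
Share of the tissue-specific isoform in the UMIs of a subunit's pair (x axis, %) by class (y axis) and library, for Cox4i2, Cox6a2 and Cox8b, with exact 95% intervals as bars. Cox4i2 reaches 71.0% in mural-like cells, Cox6a2 68.4% in the Siglech cluster and Cox8b 51.2% in RPE-like cells of Tsc1 RPE KO, while most other classes lie near 0.

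The pattern of Cox8b over 11 named classes in both libraries (22 points) was most like that of Lrat, with a Pearson correlation of log2(CPM + 10) of 0.993, and Ermn, with 0.993, among 11263 genes. Slc6a20a (0.986), Ociad2 (0.982), Sult1c1 (0.978) and Tmem56 (0.978) came next. Ermn was at 436 and 778 CPM in RPE-like cells, and the values of Lrat are given above. These correlations rest on the RPE-like points standing above all others, and each point shares its library's cells and depth across genes. For Cox6a2 the most similar genes were Cd209d (0.988), Klk1 (0.986) and Klra17 (0.985). Those correlations rest in the same way on the Siglech cluster points. Klk1 and Cd209d were among the leading genes of that cluster, and Klk1 was a marker used to name clusters. Cox4i2 and Cox7a1 had too few UMIs in those classes for this comparison.

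Outside the RPE no member with at least 50 UMIs over both libraries lay past 2-fold between them. Values from fewer UMIs are not counted here, and some lay past 2-fold in either direction. Cox5a in fibroblast-like cells was at 2.31 (1.14 to 4.91), and Cox7a1 in NK cell-like cells at 0.230 (0.00500 to 1.90). Over 11 other classes 63 member values were measured, and 0 lay past 2-fold. They ranged from 0.638 for Cox6a1 in endothelial-like cells to 1.54 for Cox6a2 in the Siglech cluster. The share of all measured genes past 2-fold in either direction was 0.68% in B cell-like, 1.13% in T cell-like, 0.992% in NK cell-like, 2.15% in classical monocyte-like and 4.85% in nonclassical monocyte-like cells. It was 1.93% in the Edn3 cluster, 3.9% in the Siglech cluster, 2.94% in endothelial-like, 6.66% in fibroblast-like, 5.45% in mast cell-like and 7.3% in rod-like cells. With backgrounds this low and 2 to 7 members measured per class, a count of 0 past 2-fold sets the members apart from no other genes.

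Smaller differences ran through several members of a class. In rod-like cells, which remained although the neural retina had been removed, all 6 common isoforms were lower in Tsc1 RPE KO, with ratios from 0.720 to 0.871. Their sum was at 4628 and 3639 CPM, a ratio of 0.786 (0.715 to 0.866), and their median log2 ratio was -0.31 against 0.05 over all measured genes. The class joined a pair of clusters in unequal parts, with 25 and 156 cells in one and 17 and 20 in the other. The ratio of the sum was 0.932 (0.828 to 1.05) within the first and 0.737 (0.607 to 0.894) within the second. In endothelial-like cells the sum was at 2488 and 2016 CPM, a ratio of 0.811 (0.702 to 0.935), and all 6 members were below 1. In nonclassical monocyte-like cells the ratio of the sum was 1.21 (1.14 to 1.29), from 2069 and 2510 CPM, with 1.20 (1.10 to 1.32) and 1.30 (1.18 to 1.42) within its clusters. There the median log2 ratio of the members was 0.33 against 0.03 over all measured genes.

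The annotation bears on how firmly single members can be read. In GENCODE M21 (mm10) Cox8b is ENSMUSG00000025488 at chr7:140898945-140900446 and Cox8a is ENSMUSG00000035885 at chr19:7215153-7217616, both protein-coding genes on the minus strand with no overlapping gene. Of the members, Cox5b shared 15.7% of the 60-base words near its 3' ends with Gm11273, and the other 9 shared 0%, so Cox8a and Cox8b tags of this length can be told apart. Cox4i1 overlaps Gm20388 on its own strand and Emc8 on the other, and Cox5a overlaps Gm26631 on the other. Whether counting used strand is not given in the sources used here. This bears on the opposite-strand overlaps of Cox4i1, Cox5a and, with Itgad, Cox6a2. It does not bear on the words that Cox5b shares or on Gm20388, which lies on the strand of Cox4i1. For these separate reasons the counts of Cox4i1, Cox5a, Cox5b and Cox6a2 are less certain than those of the subunit 8 pair.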

How the data were processed

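Live cells were sorted and captured in droplets, per the labels' protocols. The authors deposited unnormalized UMI counts of each gene and barcode, on 661479 and 728310 barcodes (10771118 and 12574364 UMIs). Cell Ranger 2.1.1 and mm10 are given in the submitters' processing notes, and Cell Ranger 4 in the file headers. The strand setting is not given in the sources used here.

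Barcodes above 10% of the 99th percentile of the top 3000 were kept (1487.4 and 1373.6 UMIs), without those under 200 genes (55 and 68) or over 20% mitochondrial UMIs (0 and 0). Scrublet in scanpy 1.11.5 marked 8 and 19 doublets, which were removed. Cells were clustered (2000 variable genes, 30 components, 20 neighbours, leidenalg 0.10.2, resolution 1; 19 clusters). A cluster was named "-like" from at least 3 markers, each seen in 10% of its cells and 2-fold above the rest, unless markers of some other class outnumbered its own among its 10 leading genes. RPE-like barcodes with at least 10 immune UMIs were left out. Counts were summed per class and library. Intervals are Poisson (CPM), conditional binomial (ratios) and Clopper-Pearson (shares), at 95%. The ratio was tested on simulated Poisson counts without spread between cells or mice, so such spread is not covered by that test. Ratios were given for classes with at least 10 cells per library.

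The members, the 9 gene lists, the tests and the naming rule were chosen with earlier results of these data known. The rule names all members, list genes with at least 20 UMIs in RPE-like cells and the genes most like Cox8b and Cox6a2 by correlation. List genes named at 0 or with fewer UMIs, and partners in other classes, were chosen after their values were seen. Alternatives covered the UMI minimum, immune barcodes, clustering genes and resolution, free RNA, CPM scaling, single cells and the measured limit. Promoter windows are from RefSeq (GRCm38.p6).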

Additional observations from a re-analysis of the deposited data

Results flagged for a closer look

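Barcodes outside the called cells also held Cox8b. RPE-like barcodes below the cell minimum, which entered no main comparison, had Cox8b as 52.2% of the subunit 8 UMIs in Tsc1 RPE KO, above the 35.4% of Tsc1 flox. Barcodes with 10 to 100 UMIs held 61 Cox8b UMIs in Tsc1 RPE KO and 8 in Tsc1 flox, and Ttr was also higher there, at 2020 against 998 CPM.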

How the results depend on the processing

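No paired analysis was possible because each genotype was 1 library, and no replicate could be left out. Under the alternatives the Cox8b ratio in RPE-like cells stayed above 2, from 3.80 with at least 500 UMIs (4.34 with at least 1000) to 6.40 as a mean over cells, and it was 10.4 without the highest cell of each library. The Cox8b share in Tsc1 flox was 24.0% with at least 500 UMIs and 8.91% without the highest cell. Of 11 measured nuclear complex IV genes, 5 were higher in Tsc1 RPE KO, but 8 with at least 500 UMIs, so no direction is given for them. Genes past 2-fold higher numbered 23, or 97 when measured from 20 UMIs, 13 from 100 UMIs and 49 past 1.5-fold; those lower numbered 10, or 62, 4 and 44. Of 237 values under alternatives 223 stayed within their counting interval or count limit, 14 moved and 0 reversed. The tally says little by itself. The alternative clusterings returned the same 12 and 44 RPE-like cells, so the ratios there were identical. A wide interval, such as 1.19 to 301 for Cox5a, is also hard to leave. The Siglech cluster was not recovered as a named class with at least 500 or 1000 UMIs, so it has no value there. Rod-like and nonclassical monocyte-like sums within single clusters were added after seeing the data. With 12 Tsc1 flox RPE-like cells, members under 50 UMIs could not be compared.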
